A study of Mus musculus with 21 samples.

Results

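The genes described are 8 members of the mouse HoxA cluster, Hoxa2, Hoxa3, Hoxa4, Hoxa5, Hoxa6, Hoxa7, Hoxa9 and Hoxa10, and Meis1. They are 9 of the 54446 gene rows in a table of read counts, taken by matching the Ensembl identifier of each row to these symbols. The table covers 21 libraries of stem and progenitor cells sorted from the bone marrow of C57BL/6 mice aged 12 weeks that were knockout (KO) or wild type (WT) for Phf6, which encodes a nuclear protein with plant homeodomain fingers. The groups were 3 KO and 2 WT libraries of LT-HSC (long-term haematopoietic stem cells), 4 KO and 4 WT libraries of MPP2, and 4 KO and 4 WT libraries of MPP3, both multipotent progenitor populations. Per the labels' protocols the marrow was stained with a lineage cocktail and for Sca-1, cKit, CD150 and CD48, and per the series' design text each library came from 100 to 200 cells. The sources used here do not give the KO allele, the tissue in which Phf6 was lost, or the sex of the mice. A library is named by its group and replicate number. The labels do not say whether libraries with 1 number in several populations came from 1 mouse, and p-values measure the spread between libraries.

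HoxA genes encode homeodomain transcription factors that lie side by side and are transcribed in 1 direction. In blood formation they are known for high expression in stem and early progenitor cells, and they are held active by the MLL (KMT2A) complex and silenced by Polycomb complexes. MEIS1 is a homeodomain protein of the TALE class that binds DNA together with HOX and PBX proteins. Hoxa9 and Meis1 are often expressed together in acute leukaemia, and their joint overexpression causes myeloid leukaemia in mice.

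All 9 genes were annotated on the minus strand of mm10. The HoxA genes ran along chromosome 6 from Hoxa2 (chr6:52162417-52164831) to Hoxa10 (chr6:52231197-52240854). Between them lay Hoxa3 (chr6:52169062-52213336), Hoxa4 (chr6:52189671-52191753), Hoxa5 (chr6:52201754-52204587), Hoxa6 (chr6:52206288-52208722), Hoxa7 (chr6:52214491-52221854) and Hoxa9 (chr6:52223100-52231089). Meis1 lay on chromosome 11 (chr11:18879817-19018985). Exons of Hoxa5, Hoxa6 and Hoxa10 overlapped no exon of another gene, and those of Hoxa9 did so over 1.52% of their length, at the miRNA gene Mir196b. The other members shared more: 15.0% of the exon length of Hoxa2, 27.1% of Hoxa3, 16% of Hoxa4, 20.4% of Hoxa7 and 18.3% of Meis1. For Hoxa7 the overlap was with the antisense gene Hoxaas3, and since the strand setting of the counting is not given, reads of the 2 cannot be told apart there. The Hoxa3 annotation spans Hoxa4, Hoxa5 and Hoxa6 and overlaps several antisense genes, so its counts are uncertain.

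Promoter sequences are shown for the 5 abundant members, since the differences between populations given below concern them. RefSeq (GRCm38.p6) gave 9 start sites for 8 of the members, with 2 for Hoxa10. Each line gives the 250 bases before a start site, 5′ to 3′ on the gene's strand, with every CG dinucleotide in capitals.
Hoxa5 (chr6:52204588-52204837, minus strand): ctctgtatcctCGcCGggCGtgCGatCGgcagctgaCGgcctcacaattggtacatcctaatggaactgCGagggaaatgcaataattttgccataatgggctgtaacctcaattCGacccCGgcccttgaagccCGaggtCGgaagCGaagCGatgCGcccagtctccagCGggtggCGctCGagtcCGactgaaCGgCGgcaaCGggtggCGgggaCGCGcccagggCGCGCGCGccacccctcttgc
Hoxa7 (chr6:52218574-52218823, minus strand): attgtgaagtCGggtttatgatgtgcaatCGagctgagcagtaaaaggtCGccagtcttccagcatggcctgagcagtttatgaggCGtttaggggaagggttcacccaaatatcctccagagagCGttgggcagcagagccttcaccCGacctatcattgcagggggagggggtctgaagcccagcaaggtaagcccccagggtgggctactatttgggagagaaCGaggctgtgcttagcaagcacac
Hoxa9 (chr6:52227371-52227620, minus strand): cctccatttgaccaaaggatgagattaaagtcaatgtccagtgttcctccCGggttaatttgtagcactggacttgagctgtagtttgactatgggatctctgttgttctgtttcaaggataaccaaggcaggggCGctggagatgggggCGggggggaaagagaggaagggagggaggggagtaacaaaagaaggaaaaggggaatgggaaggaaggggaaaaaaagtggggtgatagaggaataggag
Hoxa10 (chr6:52240855-52241104, minus strand): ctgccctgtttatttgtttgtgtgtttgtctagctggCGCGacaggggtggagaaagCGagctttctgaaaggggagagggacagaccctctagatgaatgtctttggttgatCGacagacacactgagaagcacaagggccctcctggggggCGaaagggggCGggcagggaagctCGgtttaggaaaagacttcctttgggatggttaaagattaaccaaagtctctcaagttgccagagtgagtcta
Meis1 (chr11:19018970-19019219, minus strand): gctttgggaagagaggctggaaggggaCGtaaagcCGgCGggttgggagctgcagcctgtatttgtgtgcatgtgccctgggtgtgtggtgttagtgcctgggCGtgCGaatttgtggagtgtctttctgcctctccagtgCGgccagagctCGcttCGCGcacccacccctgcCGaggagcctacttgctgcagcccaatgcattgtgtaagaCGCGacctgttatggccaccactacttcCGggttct
The windows differ in CG content. Hoxa5 had 28 CG dinucleotides, more than 92.4% of the 32817 RefSeq windows of the same length, and Hoxa9 had 3, more than 29.0% of them. Meis1 had 13, and Hoxa7 and this Hoxa10 window had 7 each, against a median of 6 over all windows. The second Hoxa10 window, nearer to Hoxa9, had 20. On either strand, the MEIS motif TGACAG occurred once each in the windows of Hoxa2 and Hoxa3 and in no window of another member, and 15.9% of all windows held it. The HOXA9-PBX motif TGATTTAT occurred in none of the 9, and 0.838% of all windows held it. The looser HOX-PBX motif TGATNNAT, which includes TGATTTAT, occurred once, in Hoxa2, and in 7.69% of all windows. A match is a run of letters and not a bound site. The windows of Hoxa3, Hoxa7 and Hoxa9 and the second window of Hoxa10 lie inside the gene annotations used for the coordinates, which extend further upstream. Those of Hoxa6 and Meis1 overlap these annotations in part.

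Total counts ran from 18892723 to 31611366 per library, with a median of 26158938. Levels are given as CPM, with library sizes adjusted by TMM, and a level per kb divides by the exon length of the gene. Phf6 was at 2.45 to 13.3 CPM in the KO libraries and at 54.4 to 209.7 CPM in the WT libraries, which checks the genotype labels. Of the sort antigens, Slamf1 and Cd48 differed between populations, and Kit and Ly6a (Sca-1) did not separate them. Slamf1 (CD150) was at most 1.99 CPM in MPP3 and at least 9.18 CPM elsewhere. Cd48 was at 5.57 to 19.1 CPM in LT-HSC and at least 165 CPM in both progenitors. Kit was at 134 to 509 CPM over all libraries. Ly6a was at 171 to 359 CPM in LT-HSC, 5.74 to 1429 CPM in MPP2 and 48.2 to 700 CPM in MPP3. Its lowest values were 5.74 CPM in KO MPP2 and 17.3 CPM in WT MPP2. A set of 3 libraries stood apart. Immunoglobulin genes took 48.0% of the counts in KO MPP2 1 and 26.8% in KO MPP3 1, and at most 4.95% elsewhere, and rRNA genes took 21.2% in KO MPP3 2 and at most 2.76% elsewhere. KO MPP3 2 also had the highest summed share of LT-HSC markers among the MPP3 libraries, 0.0722%, against at most 0.0444% in the others. Libraries whose titles begin with numbers from 52 to 64 (replicates 1 and 2) also differed from those with numbers from 162 to 212, as given below for MPP2.

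Expression in the cluster was concentrated in Hoxa5, Hoxa7, Hoxa9 and Hoxa10, which made up between 93.5% and 97.2% of the summed level per kb of the 8 HoxA genes, as a mean of each group. Hoxa9 had the highest level per kb of the HoxA genes in every group mean. Its share of the sum was 40.7% ± 6.77 in KO LT-HSC, 39.6% ± 6.04 in WT LT-HSC, 35.7% ± 8.16 in KO MPP2, 44.2% ± 6.77 in WT MPP2, 47.1% ± 4.80 in KO MPP3 and 45.4% ± 3.71 in WT MPP3 (SD, n = 3, 2, 4, 4, 4 and 4). The sum itself was 56.9 ± 12.3 CPM per kb in KO LT-HSC against 67.2 ± 6.99 in WT LT-HSC. It was 20.6 ± 4.83 CPM per kb in KO MPP2 against 34.2 ± 11.2 in WT MPP2, and 60.5 ± 29.2 in KO MPP3 against 58.7 ± 6.61 in WT MPP3 (SD). MPP2 of each genotype thus had the lowest sum, and Meis1 alone was at 17.7 to 42.1 CPM per kb as group means.

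**Figure D1:**
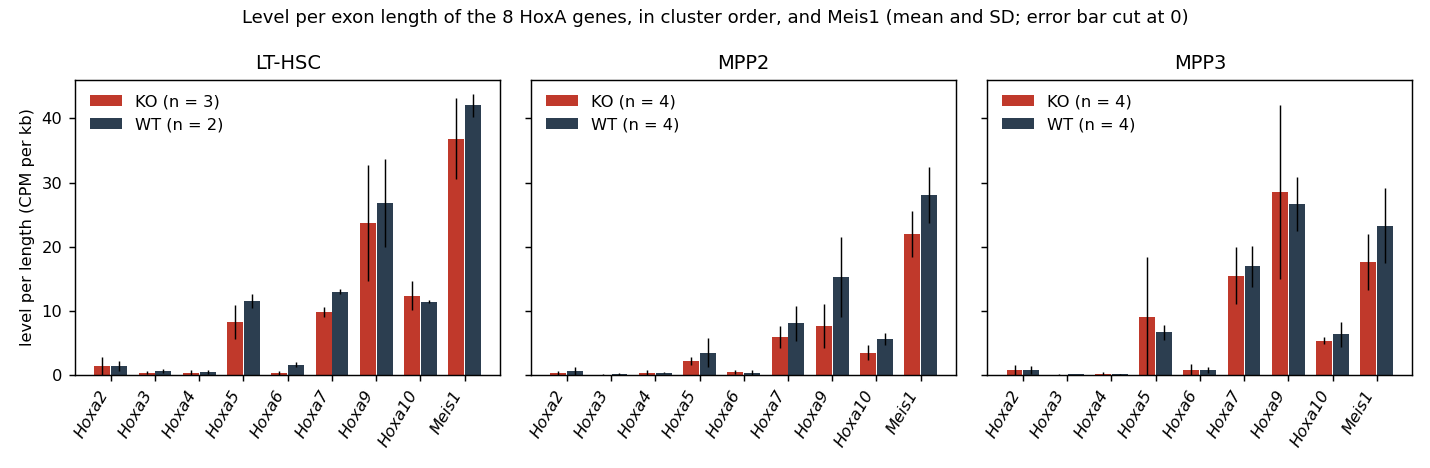
Level per exon length (CPM per kb, y axis) of the 8 HoxA genes in cluster order and of Meis1 (x axis), as mean bars with SD for KO (red, left) and WT (dark, right) in each population; Hoxa9 is the highest HoxA bar in all 6 groups, and Hoxa2, Hoxa3, Hoxa4 and Hoxa6 are near 0.

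The posterior genes Hoxa11 and Hoxa13 were close to the detection floor of 3 counts. Hoxa11 had 4 counts in 1 KO MPP2 library and 0 in the others, and Hoxa13, the most posterior gene, had at most 3 counts in any library. This floor, per library, corresponds to 0.0949 to 0.159 CPM before TMM scaling.

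Hoxa2, Hoxa3, Hoxa4 and Hoxa6 were detected at low levels. Hoxa2 ranged from 0 to 5.40 CPM and Hoxa3 from 0 to 5.10 CPM, each with 1 library at 0. Hoxa4 ranged from 0 to 1.43 CPM with 3 libraries at 0, and Hoxa6 from 0.0328 to 1.88 CPM. Hoxa3 had its highest group means in LT-HSC, at 1.80, 1.65 and 4.10 CPM in KO LT-HSC and at 2.85 and 5.10 CPM in WT LT-HSC, and no progenitor library had more than 1.92 CPM. Hoxa6 was at 0.323, 0.514 and 0.0334 CPM in KO LT-HSC, against 1.23 and 1.67 CPM in WT LT-HSC, without overlap, from 25 counts in all in the KO libraries and 84 in the WT libraries. All 4 passed the filter on low counts and were tested, and none passed the threshold in any of the 12 comparisons.

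Meis1, the HOX cofactor, was the most abundant member and highest in LT-HSC. It was at 436, 312 and 416 CPM in KO LT-HSC and at 456 and 429.6 CPM in WT LT-HSC. In MPP2 it was at 232, 196, 217 and 283 CPM in KO libraries and at 356, 256, 266 and 306 CPM in WT libraries. In MPP3 it was at 202, 243, 139 and 161 CPM in KO libraries and at 316, 235, 168 and 264 CPM in WT libraries. Within each genotype all LT-HSC libraries lay above all MPP2 and all MPP3 libraries, while MPP2 and MPP3 overlapped. Meis1 was higher in KO LT-HSC than in KO MPP3 by 1.06 ± 0.22 on the log2 scale (SE, edgeR quasi-likelihood test, adjusted p = 0.0095), a 2.08-fold difference. In WT LT-HSC against WT MPP3 the difference was 0.85 ± 0.24 (adjusted p = 0.125 by edgeR). With DESeq2 the adjusted p of this difference was 0.0404, and with limma voom 0.00348. Against MPP2 the fitted difference was 0.74 ± 0.22 in KO (adjusted p = 0.0901 by edgeR) and 0.58 ± 0.24 in WT (adjusted p = 0.304). The KO difference passed in DESeq2 (adjusted p = 0.0211), in limma voom (0.0497) and with the replicate number as a block (0.0450 by edgeR). Without KO LT-HSC 1 the call against KO MPP3 was lost (adjusted p = 0.0561 by edgeR). Within the title numbers from 52 to 64 it was not called either (0.80, adjusted p = 0.185 by edgeR). Without the 3 libraries that stood apart, the difference between KO LT-HSC and KO MPP2 passed (adjusted p = 0.0454 by edgeR).

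**Figure D2:**
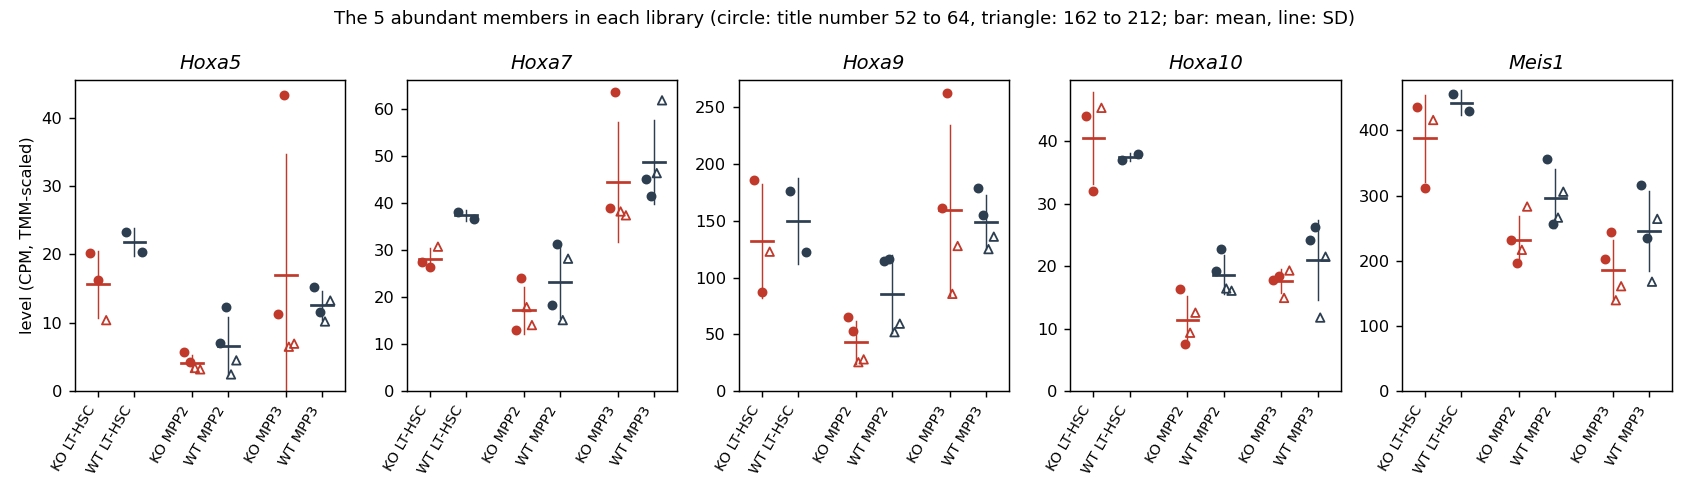
Level (CPM, y axis, own scale in each panel) of the 5 abundant members in each library, with KO (red) left of WT (dark) in each population on the x axis; bars are means, vertical lines SD, circles libraries with title numbers from 52 to 64 and triangles those from 162 to 212. Hoxa10 and Meis1 are highest in LT-HSC, Hoxa7 in MPP3, and Hoxa5 and Hoxa9 are lowest in MPP2.

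Hoxa10, which encodes an AbdB-class homeodomain factor like its neighbour Hoxa9, was also highest in LT-HSC. It was at 44.1, 32 and 45.4 CPM in KO LT-HSC and at 37.0 and 37.9 CPM in WT LT-HSC. In MPP2 it was at 16.3, 7.61, 9.33 and 12.5 CPM in KO libraries and at 19.2, 22.8, 16.4 and 16.1 CPM in WT libraries. In MPP3 it was at 17.8, 18.4, 14.9 and 19.3 CPM in KO libraries and at 24.1, 26.3, 11.8 and 21.5 CPM in WT libraries. No LT-HSC library of either genotype overlapped any progenitor library. Hoxa10 was 3.54-fold higher in KO LT-HSC than in KO MPP2 (log2 1.82 ± 0.28, edgeR adjusted p = 0.0020), and this held in 7 of 7 fits that left out 1 library (adjusted p = 0.0013 to 0.013 by edgeR). It was 2.30-fold higher in KO LT-HSC than in KO MPP3 (log2 1.20 ± 0.28, edgeR adjusted p = 0.0228). That call was lost without KO LT-HSC 1, KO LT-HSC 3 or KO MPP3 3 (adjusted p = 0.0927, 0.0873 and 0.0684 by edgeR). In WT the fitted difference against MPP2 was 1.01 ± 0.31 (adjusted p = 0.140 by edgeR, 0.0402 by DESeq2 and 0.0272 by limma voom). Against MPP3 in WT it was 0.84 ± 0.31 (adjusted p = 0.331 by edgeR and 0.0259 by limma voom). Within the title numbers from 52 to 64 the KO differences were 1.69 and 1.13, and neither passed.

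Hoxa9, a stem cell and leukaemia regulator, was lowest in MPP2, and its ranges in LT-HSC and MPP3 overlapped. It was at 186, 87.4 and 123 CPM in KO LT-HSC and at 177 and 123 CPM in WT LT-HSC. In MPP2 it was at 64.8, 53.0, 25.4 and 27.9 CPM in KO libraries and at 115, 116, 51.9 and 59.4 CPM in WT libraries. In MPP3 it was at 161, 262, 85.7 and 128 CPM in KO libraries and at 179, 155, 125 and 136 CPM in WT libraries. Within each genotype the MPP2 libraries lay below all LT-HSC and all MPP3 libraries. Hoxa9 was 3.09-fold higher in KO LT-HSC than in KO MPP2 (log2 1.63 ± 0.39, edgeR adjusted p = 0.0374). It was lower in KO MPP2 than in KO MPP3 by log2 -1.90 ± 0.38 (edgeR adjusted p = 0.0218), a ratio of 0.268. In WT the fitted values ran the same way without passing, with 0.81 ± 0.43 for LT-HSC over MPP2 (adjusted p = 0.457 by edgeR) and -0.80 ± 0.36 for MPP2 over MPP3 (adjusted p = 0.344). The call between KO LT-HSC and KO MPP2 was lost without KO LT-HSC 1 or 3 (adjusted p = 0.204 and 0.0852 by edgeR) and without KO MPP2 2, 3 or 4 (0.0622, 0.114 and 0.109). The call between KO MPP2 and KO MPP3 was lost without KO MPP2 3 or 4 (adjusted p = 0.0970 and 0.0986 by edgeR), without KO MPP3 2 or 4 (0.0646 and 0.0505), and without the 3 libraries that stood apart (log2 -1.62, adjusted p = 0.112). Within the title numbers from 52 to 64 alone the KO differences were 1.23 and -1.80, and neither passed. All WT LT-HSC libraries are in this range, where Hoxa9 averaged 149.7 CPM in WT LT-HSC, 115.5 CPM in WT MPP2 and 167 CPM in WT MPP3. In the range from 162 to 212 it averaged 55.6 CPM in WT MPP2, so the WT difference between LT-HSC and MPP2 mixes population with title number. Within the title numbers from 162 to 212 the difference of WT MPP2 over WT MPP3 passed (log2 -1.26, edgeR adjusted p = 0.0223).

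Hoxa7, an Antennapedia-class gene, was highest in MPP3 and lowest in MPP2. It was at 27.5, 26.4 and 30.8 CPM in KO LT-HSC and at 38.2 and 36.6 CPM in WT LT-HSC. In MPP2 it was at 12.9, 24.0, 17.9 and 14.0 CPM in KO libraries and at 18.4, 31.3, 15.1 and 28.2 CPM in WT libraries. In MPP3 it was at 38.9, 63.7, 38.3 and 37.4 CPM in KO libraries and at 45.2, 41.6, 46.4 and 61.9 CPM in WT libraries. In both genotypes every MPP2 library lay below every MPP3 library. It was lower in KO MPP2 than in KO MPP3 by log2 -1.37 ± 0.26 (edgeR adjusted p = 0.0178) and lower in WT MPP2 than in WT MPP3 by log2 -1.07 ± 0.26 (edgeR adjusted p = 0.0451). The KO call was lost without KO MPP2 3 or 4 (adjusted p = 0.0727 and 0.0760 by edgeR) and without the 3 libraries that stood apart (adjusted p = 0.155). The WT call held when WT MPP2 2 was left out and was lost without any of WT MPP2 1, 3 and 4 and WT MPP3 1, 2, 3 and 4 (adjusted p = 0.0844 to 0.177 by edgeR). Within the 2 ranges of title numbers the difference was -1.43 and -1.28 in KO and -0.78 and -1.35 in WT, and none of the 4 passed. The antisense gene Hoxaas3 was at 3.64 to 8.78 CPM in KO MPP2, 4.07 to 9.06 CPM in WT MPP2, 5.69 to 15.5 CPM in KO MPP3 and 6.23 to 10.6 CPM in WT MPP3.

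Hoxa5, a gene next to Hoxa6 in the cluster's middle, had its lowest group means in MPP2 and its widest spread in KO MPP3. It was at 20.2, 16.2 and 10.4 CPM in KO LT-HSC and at 23.2 and 20.4 CPM in WT LT-HSC. In MPP2 it was at 5.68, 4.25, 3.37 and 3.17 CPM in KO libraries and at 7.05, 12.2, 2.43 and 4.49 CPM in WT libraries. In MPP3 it was at 11.3, 43.4, 6.48 and 6.93 CPM in KO libraries and at 15.2, 11.5, 10.2 and 13.2 CPM in WT libraries. The value of 43.4 CPM belongs to KO MPP3 2, the library rich in rRNA reads. Its summed share of LT-HSC markers was the highest among the MPP3 libraries, which does not show that each marker was high. KO LT-HSC lay above all KO MPP2 libraries, with a fitted log2 difference of 1.92 ± 0.57 (edgeR adjusted p = 0.0999), and in WT it was 1.73 ± 0.62 (adjusted p = 0.222). All WT LT-HSC libraries had title numbers from 52 to 64, where Hoxa5 averaged 9.65 CPM in WT MPP2. In the range from 162 to 212 Hoxa5 averaged 3.46 CPM in WT MPP2, so this WT difference mixes population with title number. Without the 3 libraries that stood apart both differences between LT-HSC and MPP2 passed (edgeR adjusted p = 0.0169 in KO and 0.0476 in WT). Those 3 are all KO, so the WT libraries compared were the same, and the WT log2 difference was 1.76. With all libraries the KO difference passed in DESeq2 (adjusted p = 0.0174) and limma voom (0.0030). By edgeR it passed with the replicate number as a block (0.0459) and with a term for title numbers (0.0417). The WT difference passed in limma voom (0.0072). KO MPP2 also lay below all KO MPP3 libraries, with a fitted log2 difference of -2.05 ± 0.55 (edgeR adjusted p = 0.0879). It passed without KO MPP3 3 (adjusted p = 0.0469 by edgeR), with the replicate number as a block (0.0433), with a term for title numbers (0.0273) and in DESeq2 (0.00657). Without KO MPP3 2 it shrank to -1.0 (adjusted p = 0.365 by edgeR), and without the 3 libraries that stood apart to -0.93 (0.541).

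Counted over the 9 members, LT-HSC against MPP2 gave 2 called higher in KO, Hoxa9 and Hoxa10, where 1.81% of all genes tested were called, and 0 in WT, where 0.63% were. At an unadjusted p under 0.05 there were 6 members in KO and 4 in WT, where 16.3% and 13% of all genes were. The libraries did not overlap for 6 members in KO and 7 in WT, all higher in LT-HSC, against 7.62% and 15.3% of all genes. LT-HSC against MPP3 gave 2 called higher in KO, Hoxa10 and Meis1 (2.64% of all genes called), and 0 in WT (1.1%), with 3 and 2 members at an unadjusted p under 0.05, beside 15.6% and 9.2% of all genes. Without overlap, 3 members were higher and 1 lower in KO LT-HSC (6.73% and 5.28% of all genes), and 5 were higher and 1 lower in WT LT-HSC (14.2% and 12.0%), the lower one being Hoxa7 in both. In WT, where edgeR called 0 against MPP2 and 0 against MPP3, DESeq2 called 1 in each and limma voom 2 in each. MPP2 against MPP3 gave 2 called lower in KO, Hoxa7 and Hoxa9 (0.886%), and 1 lower in WT, Hoxa7 (1.2%). Without overlap, Hoxa5, Hoxa7 and Hoxa9 were lower in KO MPP2 (3.5% of all genes), Hoxa7 and Hoxa9 were lower in WT MPP2 (4.87%), and Hoxa4 was higher in WT MPP2 (5.33%). The median log2 difference of LT-HSC over MPP2 was 1.63 over the members in KO and 1.01 in WT, beside -0.04 and 0.00 over all genes. When only the libraries of the 2 groups compared were fitted, none of the 7 calls remained (adjusted p = 0.0568 to 0.125 by edgeR). The log2 differences in those fits were 1.83 and 1.21 for Hoxa10, 1.63 and -1.90 for Hoxa9, -1.37 in KO and -1.06 in WT for Hoxa7, and 1.07 for Meis1. None of the 7 was called within the title numbers from 52 to 64 either. In bulk RNA, fewer cells that express a gene and less RNA per cell cannot be told apart.

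Loss of Phf6 gave no called member in any population. In LT-HSC, KO against WT, 0 of 9 members were called by edgeR, where 0.00474% of all genes (1 gene) were, and 0 had an unadjusted p under 0.05, beside 2.43% of all genes. DESeq2 and limma voom also called 0. Hoxa5, Hoxa6 and Hoxa7 were lower in every KO library than in either WT library, against 10.8% of all genes. Marker lists moved beside them without a call by edgeR: in KO LT-HSC over WT LT-HSC the MPP2 markers were fitted higher for 5 of 5 (median log2 0.95), the mature neutrophil markers lower for 8 of 8 (median -7.38) and the lymphoid-primed markers lower for 4 of 6 (median -2.01). Of these lists, 4 neutrophil markers had an unadjusted p under 0.05 by edgeR, DESeq2 called 1 lymphoid-primed marker, and limma voom called 0. Neutrophil markers summed to 0.000763% to 0.00651% of counts in KO LT-HSC, and to 0.00174% in WT LT-HSC 1 and 0.509% in WT LT-HSC 2. The part of these cells in the LT-HSC values was not tested. Without WT LT-HSC 2 the fitted log2 fold change was -0.44 ± 0.42 for Hoxa7 and -0.58 ± 0.85 for Hoxa5. Hoxa7 was at 28.2 ± 2.28 CPM in KO LT-HSC and 37.4 ± 1.18 CPM in WT LT-HSC (SD, n = 3 and 2), a ratio of 0.754 with a 95% interval from 0.484 to 1.17. The ratio was 1.08 (0.685 to 1.71) for Hoxa10, 0.883 (0.469 to 1.66) for Hoxa9, 0.876 (0.616 to 1.25) for Meis1 and 0.715 (0.287 to 1.78) for Hoxa5. Each of these intervals includes 1.

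In MPP2, 8 of 9 members had fitted values below 0 for KO over WT, and none was called. By edgeR 0 of 9 passed, where 0.0142% of all genes (3 genes) did, and DESeq2 and limma voom called 0 as well. With the replicate number as a block, 11 genes were called and still 0 members. Hoxa9 was at 42.8 ± 19.3 CPM in KO MPP2 and 85.6 ± 34.7 CPM in WT MPP2 (SD, n = 4 each), a log2 fold change of -1.0 ± 0.37 (SE), a ratio of 0.500 with a 95% interval from 0.303 to 0.822. Its unadjusted p was 0.0133 and its adjusted p 0.738 (edgeR). Hoxa10 was at 11.5 ± 3.84 CPM in KO MPP2 and 18.6 ± 3.12 CPM in WT MPP2, a log2 fold change of -0.70 ± 0.26, with an unadjusted p of 0.0147 and an adjusted p of 0.738 (edgeR). These 2 were the members with an unadjusted p under 0.05, beside 6.72% of all genes. The median fitted log2 fold change over the members was -0.67, against 0.01 over all genes tested. The ranges of the 4 KO and 4 WT libraries overlapped for all 9 members, and KO lay wholly below WT for 1.08% of all genes.

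Hoxa9 in MPP2 differed by title number within each genotype. It averaged 58.9 CPM in KO and 115.5 CPM in WT among libraries with title numbers from 52 to 64, and 26.7 CPM in KO and 55.6 CPM in WT among those from 162 to 212. Within each range both KO libraries lay below both WT libraries, and KO was below WT in 4 of 4 replicate numbers for Hoxa9, Hoxa10 and Meis1. The fitted log2 fold change of Hoxa9 was -0.98 ± 0.36 in the lower range and -1.07 ± 0.21 in the higher one (edgeR adjusted p = 0.891 and 0.404). With the block it was -1.02 ± 0.25 (adjusted p = 0.460 by edgeR), and without the 3 libraries that stood apart it was -1.29 ± 0.36 (adjusted p = 0.405). Hoxa10 gave -0.82 and -0.58 in the 2 ranges and -0.72 with the block (adjusted p = 0.617 by edgeR). Meis1 was at 232 ± 37.2 CPM in KO MPP2 and 296 ± 45.5 CPM in WT MPP2, a log2 fold change of -0.35 ± 0.20 (adjusted p = 0.806 by edgeR). Hoxa7 gave -0.43 ± 0.26 and Hoxa5 -0.67 ± 0.53 (adjusted p = 0.821 and 0.900 by edgeR), each lower in KO in 3 of 4 numbers.

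**Figure D3:**
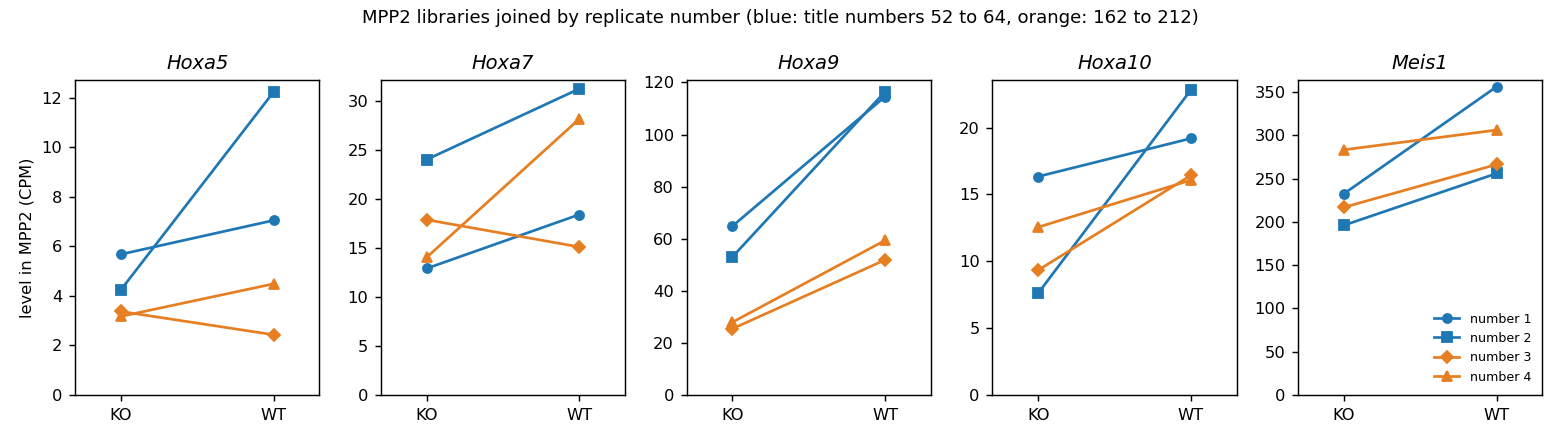
Level (CPM, y axis) in MPP2 libraries of KO (left) and WT (right), with lines joining libraries of the same replicate number; blue marks title numbers from 52 to 64 and orange those from 162 to 212. For Hoxa9, Hoxa10 and Meis1 all 4 lines are lower at KO, and for Hoxa9 the blue lines lie above the orange ones within each genotype.

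Markers of other progenitors moved with Hoxa9 in MPP2. The 6 markers of lymphoid-primed progenitors (such as Flt3, Dntt and Il7r) summed to 0.0108% and 0.0620% of counts in KO and 0.0922% and 0.176% in WT libraries of the lower title numbers, and to 0.00158% to 0.00682% in the 4 libraries of the higher ones. The 5 megakaryocyte and erythroid markers fixed for MPP2 (such as Gata1 and Pf4) ran the other way, at 0.0145% to 0.0645% in the lower and 0.177% to 0.269% in the higher title numbers. Between genotypes the lymphoid-primed markers were fitted lower in KO MPP2 for 6 of 6 and the LT-HSC markers for 5 of 6, and the megakaryocyte and erythroid markers were fitted higher for 5 of 5 (median log2 0.46), with 0 called in these lists. Markers of B and plasma cells were fitted higher in KO MPP2 for 7 of 7 tested and of mature neutrophils for 8 of 8, with 0 called, and both sums were highest in KO MPP2 1 (36.8% and 0.736%). At an unadjusted p under 0.05 edgeR gave 2 lymphoid-primed, 1 LT-HSC, 0 megakaryocyte and erythroid, 0 B and plasma cell and 4 neutrophil markers, and DESeq2 and limma voom called 0. The part of these cells in the Hoxa9 difference was not tested.

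In MPP3, KO against WT, 0 of 9 members were called by edgeR, where 0.00948% of all genes (2 genes) were, and 0 had an unadjusted p under 0.05, beside 5.62% of all genes. DESeq2 and limma voom called 0. KO lay wholly below WT for 0 members and for 1.62% of all genes. Meis1 had the smallest p, at 186 ± 46.1 CPM in KO MPP3 and 246 ± 61.7 CPM in WT MPP3, a log2 fold change of -0.40 ± 0.20 (adjusted p = 0.883 by edgeR), lower in KO in 3 of 4 numbers. Hoxa9 was at 159 ± 75.4 CPM in KO MPP3 and 149 ± 23.7 CPM in WT MPP3, a ratio of 1.07 with a 95% interval from 0.654 to 1.75. Hoxa7 had a ratio of 0.914 (0.647 to 1.29) and Hoxa10 of 0.841 (0.591 to 1.20). For Hoxa5 the ratio was 1.36 (0.663 to 2.78), and for Hoxa5 and Hoxa9 the sign turned without KO MPP3 2 (log2 -0.60 and -0.25). The difference between the KO effects of 2 populations passed for 0 of 9 members in each of the 3 pairs, where 0.0% of all genes passed by edgeR, and DESeq2 and limma voom called 0 members. At an unadjusted p under 0.05 it held for 0 members in LT-HSC against MPP2, 0 in LT-HSC against MPP3 and 1 in MPP2 against MPP3, beside 3.6%, 2.47% and 4.47% of all genes.

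**Figure D4:**
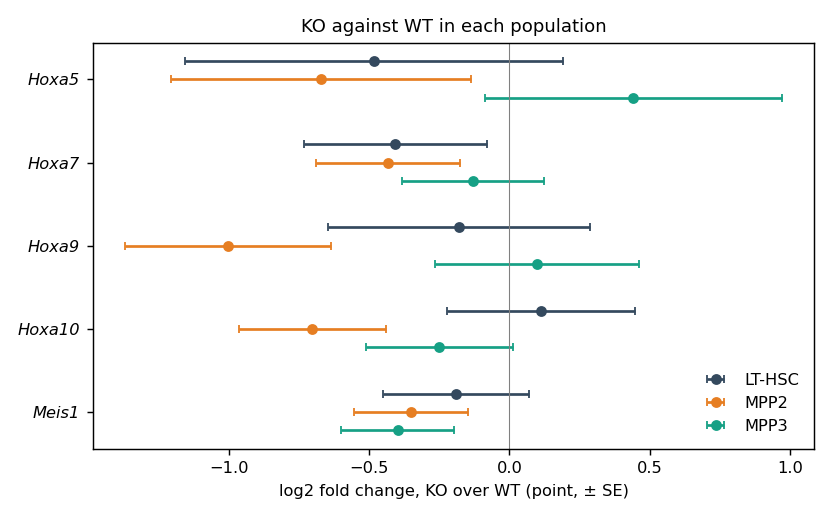
Fitted log2 fold change of KO over WT (x axis, point with SE) for the 5 abundant members (y axis) in LT-HSC, MPP2 and MPP3; all 5 points lie below 0 in MPP2, and none passed the adjusted threshold in any population.

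Relative to Meis1, Hoxa9 was lower in MPP2 than in MPP3. The log2 ratio of Hoxa9 to Meis1, both per kb, averaged -0.69 in KO LT-HSC and -0.67 in WT LT-HSC. It ranged from -2.43 to -0.93 in KO MPP2 and from -1.45 to -0.22 in WT MPP2. It ranged from 0.21 to 1.02 in KO MPP3 and from -0.04 to 0.49 in WT MPP3. In both genotypes the 4 MPP2 libraries lay below the 4 MPP3 libraries, and KO and WT overlapped within each population. WT LT-HSC, at -0.45 and -0.89, lay within the WT MPP2 range, and KO LT-HSC, from -0.92 to -0.31, lay just above the KO MPP2 range. This ratio was chosen after the values were seen and is given as a description. With the longest transcript as the length of each gene, every value is higher by 0.31.

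**Figure D5:**
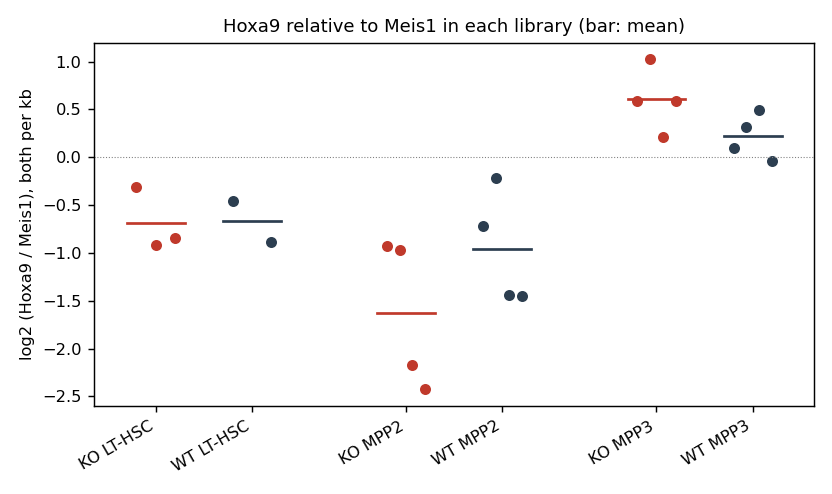
Log2 ratio of Hoxa9 to Meis1, both per kb (y axis), in each library, with KO (red) left of WT (dark) in each population on the x axis and bars at the means; all MPP2 libraries lie below all MPP3 libraries.

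Over the 21 libraries, the 2 HoxA members most alike were Hoxa5 and Hoxa9 (Pearson r of log2 CPM 0.869, and 0.795 for deviations from group means). Hoxa7 and Hoxa9 had r of 0.769 (0.319 for deviations), Hoxa10 and Meis1 0.725 (0.592), and Hoxa9 and Hoxa10 0.623 (0.447). Among all other genes with at least 10 CPM in 1 group, those most like Hoxa9 were Hmga2 (r = 0.943), Akap13 (0.940) and Zfp608 (0.939), with 0.863, 0.919 and 0.866 for deviations. For Meis1 they were Sgms1 (0.924), Dennd2d (0.879) and Pdzk1ip1 (0.874), for Hoxa10 Ifitm1 (0.891), Fcgrt (0.881) and Triqk (0.873), for Hoxa7 Mn1 (0.877), Dcaf5 (0.867) and Dnmt3a (0.866), and for Hoxa5 Gabbr1 (0.914), Firre (0.899) and Map4k2 (0.898). The low members gave Tbl1x for Hoxa2 (0.849), Relb for Hoxa3 (0.899), Rbm34 for Hoxa4 (0.747) and Fam168a for Hoxa6 (0.783). These correlations share libraries, groups and title numbers and are descriptions.

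Genes that act with or on the cluster were not called between KO and WT in any population: 0 of 8 tested TALE partners, 0 of 17 activators of HoxA transcription, 0 of 12 Polycomb genes, 0 of 18 genes known to be bound or regulated by HOXA9 and MEIS1, and 0 of 3 tested noncoding HoxA genes. These were edgeR calls, and DESeq2 and limma voom also called 0 in each list. At an unadjusted p under 0.05 edgeR gave 1, 1 and 2 Polycomb genes in LT-HSC, MPP2 and MPP3, 1 activator in MPP2, 1 HOXA9 and MEIS1 target in LT-HSC, and 0 TALE partners and 0 noncoding genes. Of all genes, 2.43%, 6.72% and 5.62% had such a p in these populations, in the order named. Cbx8, which encodes a chromobox subunit of Polycomb complexes, was at 8.13 ± 2.77 CPM in KO LT-HSC and 14.3 ± 3.51 CPM in WT LT-HSC, with an unadjusted p of 0.0381 and an adjusted p of 1 (edgeR). Between WT populations, Mllt3, which encodes the MLL fusion partner AF9, was at 221 ± 38.9 CPM in WT LT-HSC, 35.3 ± 6.14 CPM in WT MPP2 and 21.4 ± 15.4 CPM in WT MPP3. It was higher in WT LT-HSC than in WT MPP2 (log2 2.65 ± 0.45, edgeR adjusted p = 0.0102) and than in WT MPP3 (log2 3.37 ± 0.45, adjusted p = 0.000502). Trib2, a HOXA9 and MEIS1 target in leukaemia, was higher in WT MPP2 (44.8 ± 29.2 CPM) than in WT MPP3 (6.80 ± 2.95 CPM; edgeR adjusted p = 0.0122). Bcl2, which encodes a survival factor, was lower in WT LT-HSC (72.3 ± 11.6 CPM) than in WT MPP3 (144 ± 14.0 CPM; edgeR adjusted p = 0.0491). In WT LT-HSC against WT MPP3, 1 of 17 activators was thus called higher, 1 of 18 HOXA9 and MEIS1 targets lower, and 0 of 12 Polycomb genes either way, where 1.1% of all genes were called in either direction.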

How the data were processed

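The authors deposited a table of raw counts, 1 row for each gene. The submitters' processing notes name STAR and mm10. Neither they nor the labels name the version of STAR, the counter, the annotation or the strand setting. Of 54446 identifiers, 54409 matched GENCODE M21, which gave symbols and coordinates. No 2 libraries had identical counts. The robust quasi-likelihood test of edgeR 4.0.16 (R 4.3.3), with TMM factors, was applied to these counts in 1 fit of 6 groups over 21 libraries. The 21100 genes kept by filterByExpr with a minimum count of 10 were adjusted together by Benjamini-Hochberg, with a threshold of 0.05. The fit was also run on simulated counts with the same dispersion for all genes, which does not measure its power or error in these libraries. Intervals of ratios are approximate 95% intervals from the SE. They use a normal quantile, are not adjusted for the number of genes and can exclude 1 where the adjusted p does not pass. They can also do so where the unadjusted p is above 0.05. For Meis1 in MPP3, KO over WT, the interval was 0.577 to 0.998 with an unadjusted p of 0.0634 (edgeR). DESeq2 1.42.0, limma voom 3.58.1, other scaling, no filter, omitted libraries, ranges of title numbers and a replicate block were alternatives.

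The design text speaks of pairs of KO and WT mice. Deviations from group means of same-numbered KO and WT libraries correlated at 0.249, 0.237, 0.207 and 0.282 in MPP2. Same-numbered libraries also share a range of title numbers, so these correlations alone do not show pairs. The main fit was unpaired in all populations, and the replicate block was an alternative. The members and gene lists were chosen with earlier results of these data known. The rule for named genes took all members, up to 3 genes of smallest p per list and comparison, and the 3 genes most like each member, of which 1 is printed for each low member. Some results on other genes of these lists are not reported here. Pearson r used log2 CPM with a prior count of 2. The fit without KO MPP2 1, KO MPP3 1 and KO MPP3 2 was added after the data were seen.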

Additional observations from a re-analysis of the deposited data

Results flagged for a closer look

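Of 36 groups of 4 libraries, 3 held a library far from the other 3, where chance alone gives about 1 in 20. Hoxa5 was at 43.37 CPM in KO MPP3 2, against 6.48 to 11.3 CPM in the other KO MPP3 libraries. Hoxa7 was at 63.74 CPM in the same library, against 37.4 to 38.9 CPM in the others. rRNA genes took 21.2% of its counts, and its summed share of LT-HSC markers was 0.0722%. Their part in these values was not tested. Genes high in LT-HSC were not alike in KO MPP3. Hlf reached 565 CPM in KO MPP3, above its highest WT LT-HSC value of 332 CPM. Mecom, Fgd5 and Procr reached 64.8, 14.4 and 23.7 CPM in KO MPP3. Their lowest WT LT-HSC values were higher, at 118, 19.7 and 85.1 CPM. Hoxa4 was at 0.3941 CPM in WT MPP2 3, against 0.671 to 0.694 CPM in the other WT MPP2 libraries, from 12 counts.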

How the results depend on the processing

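Values of the 5 abundant members were recomputed under alternatives, save Hoxa5 and Hoxa9 in LT-HSC against MPP3 and the differences between KO effects. Of 753 such values, 671 kept direction and side of the threshold, 42 lost the call, 22 gained it and 18 turned in sign. None of those 18 had passed, and a call could be lost only where the main fit had passed. The cause of these shifts was not tested. The 3 libraries that stood apart were all KO, so leaving them out removed no WT library. The number of members called in WT LT-HSC against WT MPP2 was 0, with 1 in DESeq2, 2 in limma voom and 1 without those 3. In WT LT-HSC against WT MPP3 it was 0, with 1 in DESeq2 and 2 in limma voom. In WT MPP2 against WT MPP3 it was 1, with 0 without the filter, in the compared groups alone and in title numbers 52 to 64, and 0 to 1 with 1 library left out. In KO LT-HSC against KO MPP2 it was 2, with 4 in DESeq2, 5 in limma voom, 0 in the compared groups alone and in title numbers 52 to 64, and 4 without the 3 libraries, and 1 to 2 with 1 library left out. In KO LT-HSC against KO MPP3 it was 2, with 0 in the compared groups alone and in title numbers 52 to 64, 1 in title numbers 162 to 212, and 0 to 2 with 1 left out. In KO MPP2 against KO MPP3 it was 2, with 0 in the compared groups alone, in title numbers 52 to 64 and without the 3 libraries, 1 in title numbers 162 to 212, and 0 to 3 with 1 left out. In fits to 1 range of title numbers, LT-HSC of numbers 162 to 212 were 1 KO library, assumed to vary like the other groups.

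With the replicate number as a block, 4 members were called in KO LT-HSC against KO MPP2, where Hoxa5 (adjusted p = 0.0459 by edgeR) and Meis1 (0.0450) joined, and 0 members in any comparison of KO with WT. In LT-HSC and MPP3, same-numbered KO and WT libraries correlated at 0.0390 to 0.141. The block changed no other number of called members by over 1.5 times.

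Among the values counted above, signs turned in these cases, as log2 values. For KO over WT in LT-HSC, Hoxa9 was at 0.13 with the block, 0.043 with the block and KO LT-HSC 3 at number 4, 0.11 with a term for title numbers, and -0.51 to 0.11 with 1 library left out, and Hoxa10 was at -0.070 in limma voom. For KO over WT in MPP3, Hoxa5 was at -0.61 in limma voom, -0.81 in title numbers 162 to 212, -0.90 without the 3 libraries and -0.60 to 0.71 with 1 left out. Hoxa9 there was at -0.31, -0.29, -0.48 and -0.25 to 0.30 in the same order, Hoxa7 at 0.22 in title numbers 52 to 64 and -0.35 to 0.0059 with 1 left out, and Hoxa10 at 0.037 in title numbers 162 to 212. Meis1 in KO MPP2 over KO MPP3 was at -0.015 in title numbers 52 to 64.

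Without TMM, 5 of 54 group levels moved by more than their SD, and with the longest transcript as length 28 did. Levels of Hoxa2, Hoxa3, Hoxa4 and Hoxa6 rest on at most 162 counts per library. With 2 to 4 libraries per group, the lack of a call does not show that a gene was unchanged.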
